A study of Mus musculus with 19 samples.

Results

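The genes of the MHC class II pathway described here are H2-Aa, H2-Ab1, H2-Eb1, Cd74, H2-DMa, H2-DMb1, H2-DMb2, H2-Oa, H2-Ob and Ciita. They were chosen by name, as the class II chains, their chaperones and their regulator, and each was found by its mouse Ensembl ID among the 49671 genes of the deposited table. All 10 were among the 23973 genes tested, those reaching a value of 10 or more in 3 or more libraries. Bulk RNA-seq was made from brain homogenate enriched for microglia, 1 library per mouse, from 19 mice. HEM mice carry a transgene on the X chromosome in which the murine Thy-1 promoter drives full-length human wild-type α-synuclein, and WT mice are their controls. Both genotypes have the B6D2F1/J background. The groups are HEM at 13 months (n = 8), WT at 13 months (n = 4), HEM at 3 months (n = 4) and WT at 3 months (n = 3). The Thy-1 promoter is mainly known as a driver of expression in neurons, so the transgene need not be expressed in the microglia themselves.

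MHC class II molecules are cell-surface pairs of an α and a β chain that show peptides from endosomes to CD4 T cells. Newly made pairs are held by the invariant chain, the product of Cd74, and exchange its last fragment for a peptide with the help of the DM heterodimer, which the DO heterodimer restrains. Transcription of these genes rests on the coactivator encoded by Ciita, which is recruited to proteins bound at an X box and a Y box before the start site. In brain, resting microglia make little class II, interferon-γ induces it through the kinases JAK1 and JAK2, and border macrophages, dendritic cells and B cells carry more.

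The promoters of class II genes carry these boxes, and 4 of them are shown because the genes differ in how far the boxes can be read from their letters. The sequences come from RefSeq on GRCm38.p6, run 5′ to 3′ on the gene's own strand, and end before the annotated gene start. Capitals mark the X box AGNNACNGA and the Y box ATTGG of a spaced pair, as defined below, and where no such pair was found the Y box alone. Other matches to either box are left in lower case. The H2-Eb1 stretch is chr17:34305717-34305866 on the plus strand, H2-Eb2, a neighbouring class II β gene, is chr17:34325525-34325664 on the plus strand, H2-Aa is chr17:34287824-34287973 on the minus strand, and H2-Ob is chr17:34238755-34238902 on the plus strand.
H2-Eb1: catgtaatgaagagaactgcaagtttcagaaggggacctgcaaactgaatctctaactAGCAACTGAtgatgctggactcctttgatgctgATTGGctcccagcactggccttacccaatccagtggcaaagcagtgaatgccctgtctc
H2-Eb2: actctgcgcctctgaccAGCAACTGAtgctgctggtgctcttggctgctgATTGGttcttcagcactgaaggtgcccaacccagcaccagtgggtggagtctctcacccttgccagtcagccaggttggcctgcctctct
H2-Aa: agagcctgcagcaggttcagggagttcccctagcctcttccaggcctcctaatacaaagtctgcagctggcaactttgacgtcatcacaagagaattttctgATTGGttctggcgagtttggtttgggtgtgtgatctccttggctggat
H2-Ob: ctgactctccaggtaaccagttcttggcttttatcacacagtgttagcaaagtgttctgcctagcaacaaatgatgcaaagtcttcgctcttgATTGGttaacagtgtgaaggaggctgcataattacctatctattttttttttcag
Both boxes were searched on both strands in windows reaching from 250 bases before to 50 bases after each RefSeq start. An X box followed by a Y box with 15 to 25 bases between them was found in 43 of 32851 windows (0.131%). With or without the other box, an X box was in 17.7% and a Y box in 37.4% of them. Of the 10 genes, 7 had a window that was used, 7 of these held a Y box, 4 an X box, and 2 the spaced pair. The genes without a used window are named with the methods below, and these counts say nothing of them. The pair had 24 bases between its boxes in H2-Eb1 and 25 in H2-DMb1, and the one in H2-Eb2 also had 24. A match describes letters in a window and not a bound site.

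The libraries held 63.3 to 124.5 M reads in genes, with 63.3 to 95.8 M in HEM mice and 93.2 to 124.5 M in WT mice at 13 months. All 10 microglia markers listed, such as Tmem119, P2ry12 and Cx3cr1, were detected in each library. None of the 10 B cell, 10 dendritic cell, 8 monocyte or 10 neutrophil markers was at 0 in any library, so cells or RNA of these types were present beside microglia. In such bulk samples, fewer cells of a type and less RNA per cell cannot be told apart. P-values measure the spread between mice, with 1 library each. HEM replicates 1 and 11 of 13 months and HEM replicate 3 of 3 months were set beforehand as libraries apart on principal components of all genes. The components themselves are not given here. Without these libraries 5 of the 10 genes were called between HEM and WT mice at 13 months, 4 with age in HEM mice, 2 with age in WT mice and 0 at 3 months.

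A class II gene that is not on the list separated the libraries and bears on the results. H2-Ea-ps, annotated as a polymorphic pseudogene, is the locus of the I-E α chain (chromosome 17, 34341959 to 34344645, minus strand). As background, C57BL/6 mice do not transcribe it because of a deletion in its promoter, DBA/2 mice do, and B6D2F1 mice are the first-generation cross of these strains. At 13 months it had 5931, 5955, 6370, 7568, 629, 5830, 351 and 5707 normalised reads in the 8 HEM mice (replicates 1, 3, 4, 7, 8, 11, 12 and 13), against 3805, 5252, 3941 and 0 in WT mice (replicates 6, 7, 8 and 9). The value of 0 in WT replicate 9 allows up to 3 reads, or 3.03 normalised reads, for counting error only. At 3 months it had 14141, 12989, 12395 and 9709 normalised reads in HEM mice, against 11211, 7747 and 7145 in WT mice. HEM replicates 8 and 12 and WT replicate 9 stood far below the others of their age, and each 3-month library but WT replicate 5 lay above each 13-month one. Relative to H2-Eb1, its partner chain, and per kb of exon, the ratio was 0 to 0.732 at 13 months and 1.41 to 1.87 at 3 months. The labels give no H2 haplotype for any mouse, and the part of H2 alleles in the values of the other class II genes was not tested. Results are given below with and without these 3 libraries, a setting chosen after their values were seen.

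Per kb of exon, the invariant chain gene Cd74 (chromosome 18, 60803848 to 60812652) was the most abundant in each group, with a mean of 31882 normalised reads per kb in HEM mice and 21856 in WT mice at 13 months. The 3 classical chain genes ranked H2-Eb1, H2-Ab1 and H2-Aa in all 4 groups and followed directly at 13 months, while at 3 months the mean of H2-DMa was above that of H2-Aa. In HEM mice at 13 months their means were 9771, 7743 and 4346 normalised reads per kb, and the libraries of H2-Eb1 and H2-Ab1 overlapped while those of H2-Ab1 and H2-Aa did not. The DM genes came next, with 2442 normalised reads per kb for H2-DMa, 2165 for H2-DMb1 and 1203 for H2-DMb2 in the same mice. H2-DMa and H2-DMb1 overlapped there, and H2-DMb1 and H2-DMb2 did not. H2-Ob, at 555 normalised reads per kb, overlapped with H2-Oa, at 460, and Ciita, at 123, was lowest in each group. H2-DMb1 and H2-DMb2 changed places with age, as the ratios below show. The exons of H2-Oa are overlapped over 22.8% of their length by BC051537 and those of H2-DMa over 10.4% by Brd2, both on the opposite strand, and the strand setting of the counting is not given in the sources used here.

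**Figure D1:**
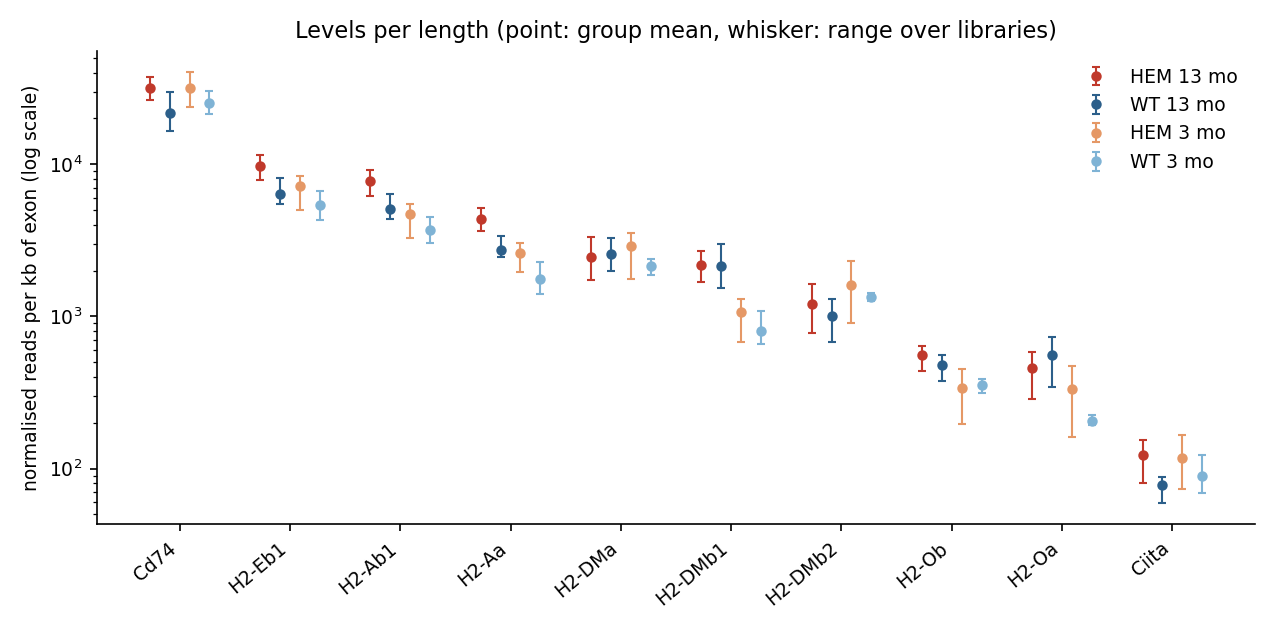
Levels of the 10 genes in normalised reads per kb of exon on a log scale, by group; points are group means and whiskers the range over libraries (n = 8, 4, 4 and 3). Cd74 is highest and Ciita lowest in each group, and H2-DMb1 lies below H2-DMb2 only at 3 months.

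At 13 months, HEM mice had more transcript of the classical class II chains and of the invariant chain than WT mice. H2-Aa, H2-Ab1, H2-Eb1 and Cd74 rose, 4 of the 10 genes, with fitted folds of 1.49 to 1.59, and none of the 10 fell. Over all tested genes 4.87% were called higher and 7.3% lower, at a limma adjusted p under 0.05. The median log2 change of the 10 genes was 0.42, against 0.03 over all tested genes. The peptide editors H2-DMa, H2-DMb1 and H2-DMb2, their inhibitor genes H2-Oa and H2-Ob, and Ciita did not pass.

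H2-Aa (chromosome 17, 34282744 to 34287823, minus strand), the α chain of I-A, had 13909 normalised reads at the lowest, 15426 at the median and 19657 at the highest in the 8 HEM mice, against 9607, 12778, 9319 and 9722 in the 4 WT mice. Each HEM library was above each WT library, the only one of the 10 genes of which this was true, as it was of 2.69% of tested genes in that direction and of 3.98% in the other. The log2 change was 0.67 ± 0.14 (SE, limma adjusted p = 0.00542). H2-Ab1 (chromosome 17, 34257689 to 34269419), the β chain of I-A, had 15808, 19497 and 23459 normalised reads at the lowest, median and highest in HEM mice, against 11504, 16354, 11275 and 12731 in WT mice. The groups overlapped only through WT replicate 7, which was above HEM replicate 1. Its log2 change was 0.62 ± 0.15 (SE, limma adjusted p = 0.0089).

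H2-Eb1 (chromosome 17, 34305867 to 34316674), the β chain of I-E, had 15210, 18360 and 22451 normalised reads at the lowest, median and highest in HEM mice, against 11381, 15676, 10576 and 11738 in WT mice. The same pair of libraries made the overlap, and the log2 change was 0.63 ± 0.15 (SE, limma adjusted p = 0.00948). Cd74 had 44302, 53668 and 62851 normalised reads at the lowest, median and highest in HEM mice, against 34195, 50393, 34612 and 27587 in WT mice. WT replicate 7 was again the high control, above HEM replicate 1 only. The log2 change was 0.57 ± 0.15 (SE, limma adjusted p = 0.0177), and it did not pass without WT replicate 8 (adjusted p = 0.0554) or WT replicate 9 (adjusted p = 0.0939).

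Ciita (chromosome 16, 10480059 to 10528418), the coactivator, had 770, 1180 and 1469 normalised reads at the lowest, median and highest in HEM mice, against 843, 808, 570 and 737 in WT mice. HEM replicate 11 was the only HEM library within the range of the WT mice. The log2 change of 0.65 ± 0.21 was as large as that of the chains but missed the threshold (limma adjusted p = 0.0543). On the recovered reads it passed with DESeq2 (adjusted p = 0.0186) and missed with edgeR (adjusted p = 0.0531).

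The DM genes had intervals that reached both sides of 0. H2-DMa (chromosome 17, 34119541 to 34139101), the α chain of DM, had 5952, 8504 and 11470 normalised reads at the lowest, median and highest in HEM mice, against 8634, 11236, 6806 and 9010 in WT mice. The log2 difference was -0.10 (95% interval -0.51 to 0.31). For H2-DMb1 (chromosome 17, 34153072 to 34160230), a DM β chain, the values were 2847, 3560 and 4499 normalised reads in HEM mice, against 3187, 3653, 2573 and 5053 in WT mice. These ranges are nested, and the log2 difference was 0.04 (95% interval -0.37 to 0.44). H2-DMb2 (chromosome 17, 34143307 to 34151555), the other DM β chain, had 1357, 2111 and 2858 normalised reads in HEM mice, against 1893, 2278, 1703 and 1184 in WT mice, a log2 difference of 0.26 (95% interval -0.19 to 0.71). H2-DMb1 and H2-DMb2 are similar neighbouring genes, and reads could be divided between them.

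The DO genes, known mainly from B cells, did not pass either. H2-Oa (chromosome 17, 34092340 to 34095234), the DO α chain, had 406, 634 and 825 normalised reads at the lowest, median and highest in HEM mice, against 687, 951, 483 and 1037 in WT mice, with a log2 difference of -0.27 (95% interval -0.82 to 0.29). H2-Ob (chromosome 17, 34238903 to 34254414), the DO β chain, had 2345, 3091 and 3421 normalised reads in HEM mice, against 2606, 2983, 2037 and 2622 in WT mice, with a log2 difference of 0.22 (95% interval -0.13 to 0.58). Both pairs of ranges overlapped. H2-Eb2, at 35.9 to 192.5 normalised reads in HEM mice and 30.1 to 96.1 in WT mice, had a log2 difference of 0.54 ± 0.46 (SE, limma adjusted p = 0.539).

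**Figure D2:**
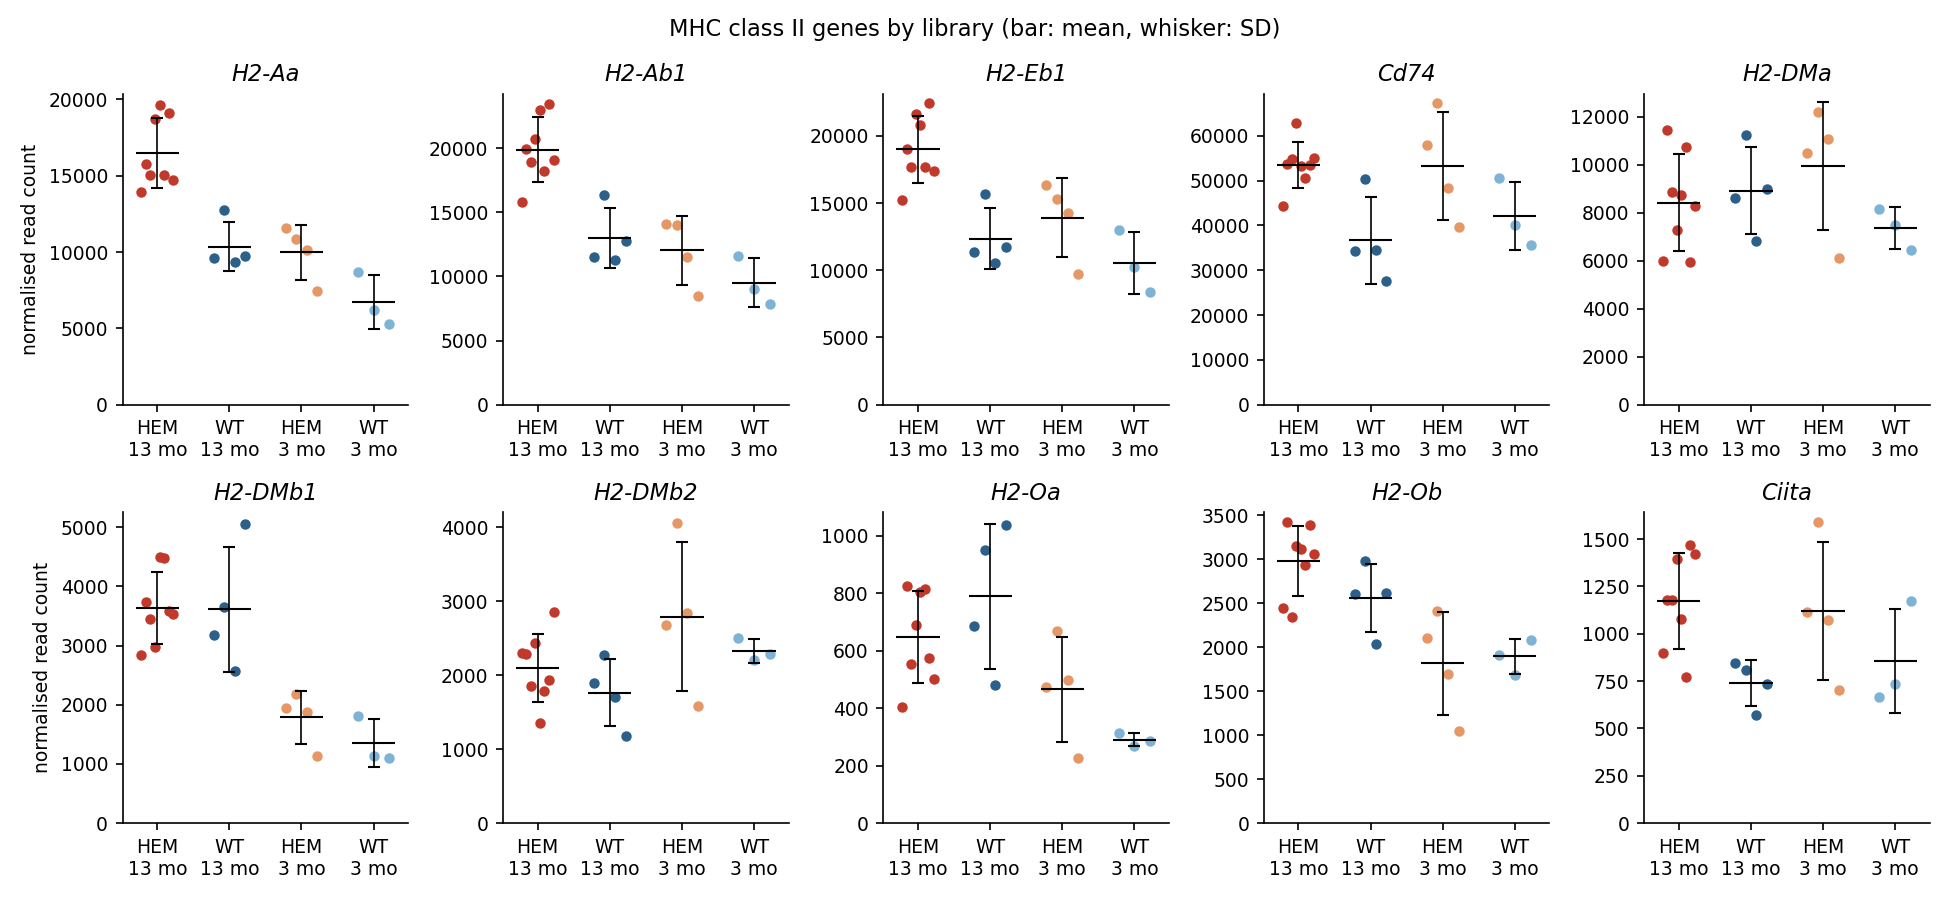
Normalised read count of the 10 genes in each library; points are mice, bars the group mean and whiskers the SD (n = 8, 4, 4 and 3). H2-Aa is the gene whose 13-month HEM mice, at 13909 to 19657, all lie above the 13-month WT mice, at 9319 to 12778.

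Other genes of class II induction changed in the same comparison. Of 31 listed genes of the pathway, all tested, 6 rose and 1 fell, where 4.87% of all tested genes were called higher and 7.3% lower. Their median log2 change was 0.14. Irf1, an interferon-induced activator of Ciita, ranged from 5614 to 10655 normalised reads in HEM mice and from 4207 to 4547 in WT mice, a log2 change of 0.78 ± 0.14 (SE, limma adjusted p = 0.00265). Socs1, an inhibitor of JAK kinases that interferon-γ induces, rose by 0.93 ± 0.19 on the log2 scale (SE, limma adjusted p = 0.00402). Ifng itself, which lymphoid cells make, had 98.8 to 638.6 normalised reads in HEM mice and 53.5 to 109.2 in WT mice, with a log2 change of 1.62 ± 0.39 (SE, limma adjusted p = 0.0103). Nfyb (0.31), a subunit of the factor that binds the Y box, and Jak2 (0.27), a kinase of the interferon-γ receptor, also rose on the log2 scale, with limma adjusted p-values of 0.0348 and 0.038. March8, a membrane ubiquitin ligase of the family that removes class II from the cell surface, fell by 0.36 on the log2 scale (limma adjusted p = 0.0137). The X box factor gene Rfx5 had a log2 difference of 0.14 and the co-stimulator Cd86 of -0.10, and neither passed. Among the 9 other tested genes within the class II interval of chromosome 17, from 34092340 to 34344645, only Tap1, a peptide transporter of the class I pathway, was called, at a log2 change of 0.58. Over all tested genes 12.2% were called in either direction, so 1 call among 9 genes does not set this interval apart.

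Markers of dendritic cells and of several blood cell types moved in the same comparison. Of 10 dendritic cell markers 3 rose, Flt3 by 1.24, Xcr1 by 1.29 and Clec9a by 1.02 on the log2 scale. The median log2 difference of the 10 was 0.46, and 2 of them were below 0. The summed level of the list was 7819 to 9346 in HEM mice and 5961 to 7493 in WT mice, with no overlap. No B cell marker of 10 was called, with a median log2 difference of 0.38 and sums of 39526 to 88744 in HEM mice and 36226 to 54693 in WT mice. Of 10 border macrophage markers 1 was called, higher in HEM mice, and 6 had a log2 difference below 0, with a median of -0.13. Their sums overlapped, at 42545 to 69145 in HEM mice and 48271 to 69818 in WT mice. All 10 neutrophil markers rose, with a median of 2.14 and sums of 62902 to 549074 in HEM mice and 36696 to 100566 in WT mice, as did 6 of 8 monocyte markers and, among 7 erythroid markers with a median of 1.04, 2. Of 8 T cell markers, all with a log2 difference above 0 and with a median of 1.20, Cd3e, Cd3g and Cd4 rose, by 1.30, 1.31 and 1.10 on the log2 scale. No microglia marker of 10 was called, with a median of -0.20. With the mean of the dendritic and B cell markers as a covariate, the log2 change was 0.60 for H2-Aa (limma adjusted p = 0.0746), 0.41 for Cd74 and 0.24 for Ciita, and none of the 10 genes was called. Calls over all genes also fell under this covariate, to 173 higher and 469 lower, against 1167 and 1751 without it. With the mean of the neutrophil and erythroid markers as a covariate, the log2 change was 0.62 for H2-Aa (limma adjusted p = 0.471), 0.44 for Cd74 and 0.31 for Ciita, and no gene of the 10 or of all tested was called, though 2137 had an unadjusted p under 0.05. Without the 3 libraries low in H2-Ea-ps none of the 10 was called, with log2 differences of 0.54 for H2-Ab1 and H2-Eb1 and 0.45 for Cd74 and a smallest limma adjusted p of 0.0631, for H2-Aa. Calls over all genes were then 286 higher and 724 lower, against 1167 and 1751 with all libraries.

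**Figure D3:**
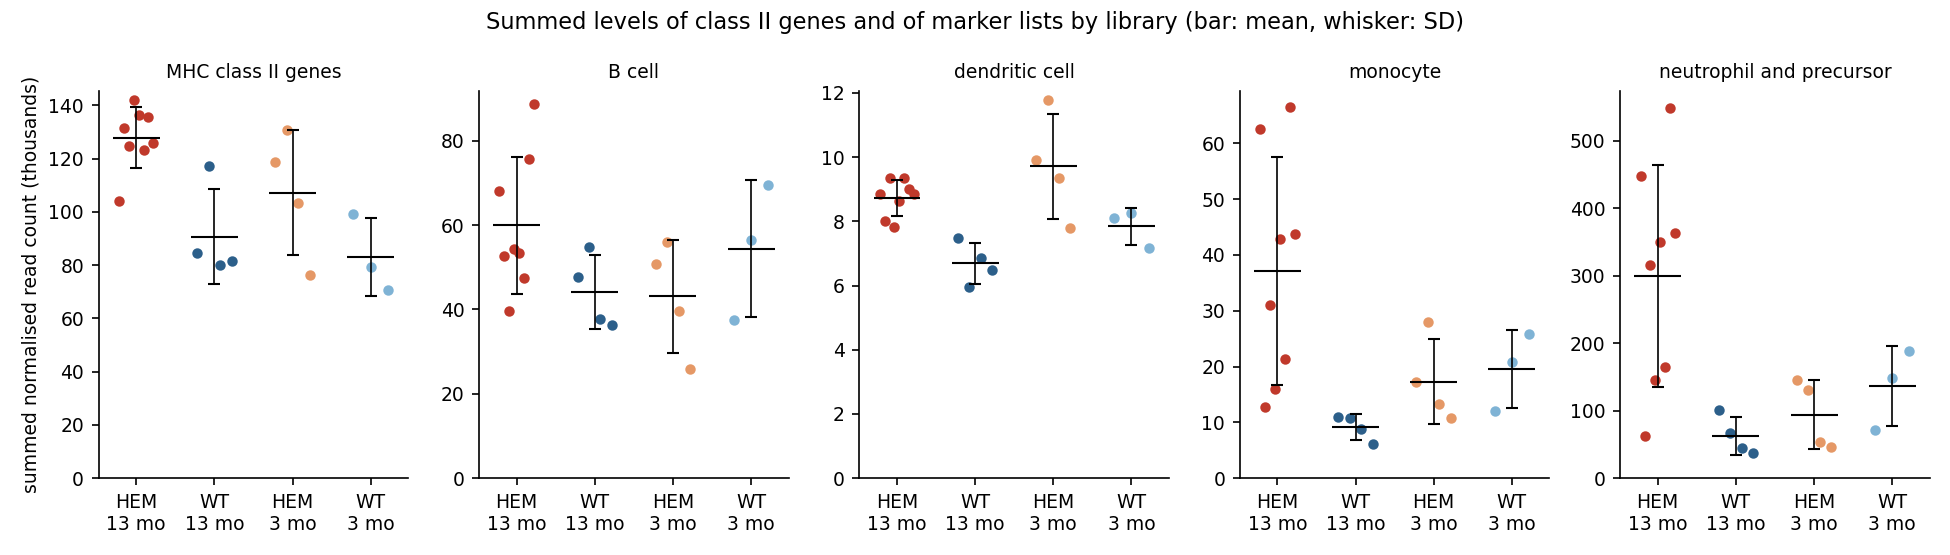
Summed normalised read counts of the 10 class II genes and of 4 marker lists in each library; bars are group means and whiskers the SD (n = 8, 4, 4 and 3). At 13 months the dendritic cell sums of HEM mice lie above those of WT mice without overlap, and the neutrophil sums of HEM mice spread from 62902 to 549074.

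At 3 months none of the 10 genes passed between HEM and WT mice, nor did any gene of all tested (0% called). H2-Aa was nearest, with 11573, 10825, 10104 and 7421 normalised reads in HEM mice, against 8695, 6229 and 5292 in WT mice. HEM replicate 7 lay below WT replicate 1, and the log2 difference was 0.58 (95% interval 0.20 to 0.95), with an unadjusted limma p of 0.0044 and an adjusted p of 0.99998. H2-Ab1 had 14111, 13980, 11529 and 8459 normalised reads in HEM mice, against 11574, 9049 and 7845 in WT mice, a log2 difference of 0.33 ± 0.18 (SE). H2-Eb1 had 16356, 15333, 14283 and 9747 in HEM mice, against 12994, 10277 and 8350 in WT mice, a log2 difference of 0.40 ± 0.18 (SE). HEM replicate 7 was the lowest HEM library in each of these genes. Cd74 had 58001, 67442, 48257 and 39683 normalised reads in HEM mice, against 50617, 40134 and 35625 in WT mice, a log2 difference of 0.33 ± 0.19 (SE).

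The log2 difference at 3 months was above 0 in 9 of the 10 genes, with a median of 0.38 against 0.01 over all tested genes, and the groups overlapped in all 10, where 3.08% of tested genes had no overlap with HEM higher and 2.78% with HEM lower. H2-Oa had 473, 669, 497 and 225 normalised reads in HEM mice, against 315, 270 and 287 in WT mice, with a log2 difference of 0.58 ± 0.33 (SE). H2-Ob, the gene below 0, had 2110, 2410, 1702 and 1053 in HEM mice, against 1918, 1685 and 2088 in WT mice, a log2 difference of -0.12 ± 0.21 (SE). HEM replicate 7 was the lowest of the 7 libraries in both. Over all genes 924 had an unadjusted limma p under 0.05 at 3 months, and on the recovered reads edgeR called 0 and DESeq2 called 5 genes higher and 1 lower, none of them among the 10. None of the 31 pathway genes and no listed marker of another cell type was called. The median log2 difference was 1.16 over the 8 neuron markers, all of them above 0, -0.65 over the 10 neutrophil markers, all of them below 0, and -0.38 over the 10 B cell markers, 9 of them below 0. Their part in the 3-month values was not tested beyond the 2 covariate fits. None of the 10 genes was called in these, but none was called without a covariate either, so that count cannot show it. With the neutrophil and erythroid covariate the log2 difference was 0.60 for H2-Aa and 0.37 for H2-Ab1. With the dendritic and B cell covariate it was 0.58 and 0.34, against 0.58 and 0.33 without a covariate.

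The difference between the genotype effects at 13 and at 3 months was itself tested, and none of the 10 genes passed. The log2 differences of effects ranged from -0.84 ± 0.42 for H2-Oa (SE, limma adjusted p = 0.364) to 0.34 ± 0.27 for H2-Ob, with 0.09 ± 0.23 for H2-Aa. No gene of all tested was called by limma, with 3551 at an unadjusted p under 0.05. DESeq2 called 374 higher and 564 lower, none of them among the 10. The passing of 4 genes at 13 months and of none at 3 months is therefore not shown to be a difference between the ages.

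**Figure D4:**
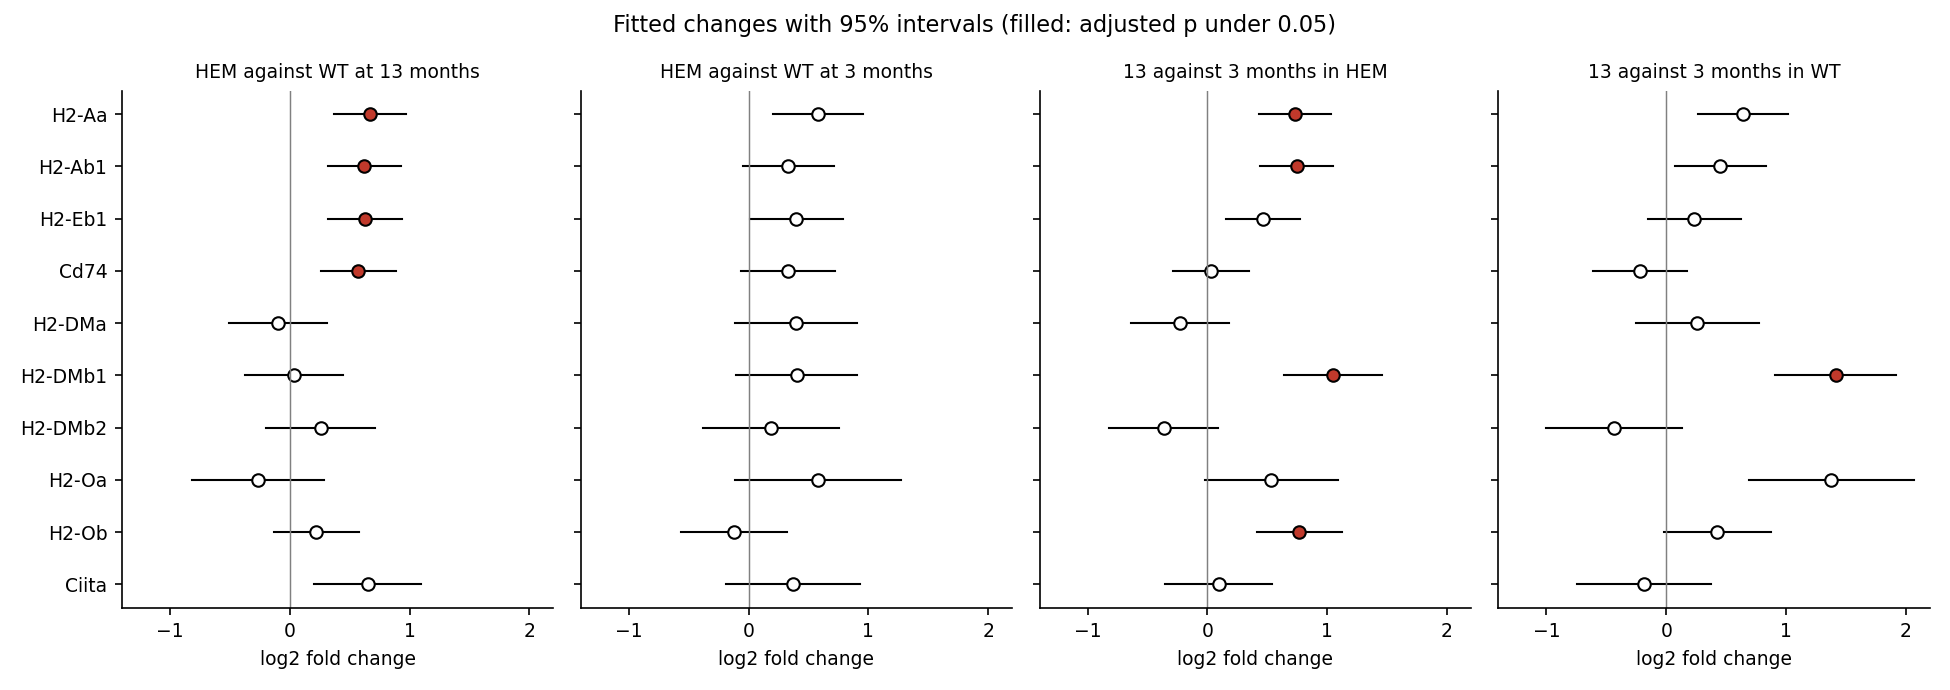
Fitted log2 fold changes of the 10 genes with 95% intervals in each comparison, filled where the limma adjusted p over all tested genes is under 0.05. The genotype effect at 13 months is filled for the 3 chains and Cd74, and the age effect in both genotypes only for H2-DMb1, at 1.05 in HEM and 1.41 in WT mice.

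With age, the class II genes did not move together. Between 13 and 3 months in HEM mice, H2-Aa, H2-Ab1, H2-DMb1 and H2-Ob rose, 4 of the 10 genes, where 0.934% of tested genes were called higher, and none fell, where 0.684% were called lower. In WT mice, H2-DMb1 alone rose, where 0.463% were called higher, and none fell, where 0.246% were called lower. Cd74, the most abundant of the genes, had a log2 difference of 0.03 ± 0.15 in HEM mice and -0.22 ± 0.19 in WT mice (SE). These comparisons use the same groups as the comparisons of genotype, so the 4 are not independent of each other.

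H2-DMb1 was the gene called with age in both genotypes. It had 2847 to 4499 normalised reads in HEM mice at 13 months, against 1946, 2182, 1884 and 1139 at 3 months, a log2 change of 1.05 ± 0.19 (SE, limma adjusted p = 0.0162). In WT mice it had 3187, 3653, 2573 and 5053 at 13 months, against 1814, 1134 and 1107 at 3 months, a log2 change of 1.41 ± 0.24 (SE, limma adjusted p = 0.0218). The ages did not overlap in either genotype, as was so for 1.44% of tested genes in HEM and 8.83% in WT mice in that direction, and for 1.36% and 6.46% in the other. H2-DMb2 had 1357 to 2858 normalised reads at 13 months in HEM mice, against 2674, 4063, 2846 and 1590 at 3 months, and in WT mice 1893, 2278, 1703 and 1184 at 13 months, against 2506, 2201 and 2283 at 3 months. Its log2 differences of -0.37 ± 0.22 and -0.44 ± 0.27 (SE) had the opposite sign and did not pass. H2-DMa had log2 differences of -0.23 ± 0.20 in HEM and 0.26 ± 0.24 in WT mice (SE).

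H2-Aa rose with age in HEM mice by 0.73 ± 0.14 (SE, limma adjusted p = 0.0175) on the log2 scale, with no overlap of the ages. In WT mice the log2 difference was 0.64 ± 0.18 (SE, limma adjusted p = 0.0831), also without overlap. H2-Ab1 rose in HEM mice by 0.75 ± 0.15 (SE, limma adjusted p = 0.0175), again without overlap, and differed by 0.45 ± 0.18 in WT mice (SE, limma adjusted p = 0.224). H2-Eb1 had 0.46 ± 0.15 (SE, limma adjusted p = 0.118) in HEM mice and 0.23 ± 0.18 (SE) in WT mice. H2-Ob rose in HEM mice by 0.77 ± 0.17 (SE, limma adjusted p = 0.0298), with the highest 3-month library, at 2410 normalised reads, above the lowest 13-month library, at 2345. In WT mice its log2 difference was 0.43 ± 0.21 (SE, limma adjusted p = 0.349).

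H2-Oa had 687, 951, 483 and 1037 normalised reads in WT mice at 13 months, against 315, 270 and 287 at 3 months. The ages did not overlap, but the log2 difference of 1.38 ± 0.33 missed the threshold (SE, limma adjusted p = 0.0535), and in HEM mice it was 0.53 ± 0.26 (SE, limma adjusted p = 0.32). Ciita had 0.09 ± 0.21 in HEM and -0.18 ± 0.27 in WT mice (SE). H2-Eb2 was scarce but higher at 13 months, with 35.9 to 192.5 normalised reads in HEM mice, against 19.7, 42.2, 9.97 and 15.2 at 3 months, a log2 change of 2.05 ± 0.46 (SE, limma adjusted p = 0.0314). In WT mice it had 30.1 to 96.1 at 13 months, against 7.96 to 19.01 at 3 months, with a log2 difference of 2.25 ± 0.58 (SE, limma adjusted p = 0.0645). Of the 31 pathway genes only Sppl2a, the protease that clears the last membrane fragment of the invariant chain, was called with age, falling by 0.38 on the log2 scale in HEM mice (limma adjusted p = 0.034), and none in WT mice.

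Calls with age depended on single libraries and on the libraries low in H2-Ea-ps. In HEM mice H2-DMb1 passed in all 19 fits that left out 1 library, while without HEM replicate 7 of 3 months H2-Aa, H2-Ab1 and H2-Ob had limma adjusted p-values of 0.0632, 0.0603 and 0.0867. Without HEM replicate 4 of 3 months 2 of the 10 passed. In WT mice H2-DMb1 did not pass in 5 of 19 such fits, those without WT replicate 7 or 9 of 13 months or any of the 3 WT mice of 3 months. Without the 3 libraries low in H2-Ea-ps, H2-DMb1 passed in HEM mice (log2 change 0.995, limma adjusted p = 0.035) and not in WT mice (1.24, limma adjusted p = 0.0736), and no other of the 10 was called. Markers moved with age too: in HEM mice the median log2 difference was 1.64 for neutrophil, 0.43 for B cell and -0.93 for neuron markers, and in WT mice -1.15, -0.46 and -0.11, with none of these called. Their part in the age results was not tested beyond the covariate fits given in the closing section.

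Of 7 ratios between class II genes within a library, 4 separated the ages without overlap, the one of H2-Ea-ps over H2-Eb1 given above and 3 others. Per kb of exon, H2-DMb1 over H2-DMb2 was 1.27 to 4.44 at 13 months and 0.504 to 0.756 at 3 months. H2-DMa over H2-DMb1 was 0.81 to 1.5 at 13 months and 2.19 to 3.22 at 3 months. Cd74 over H2-Ab1 was 3.31 to 4.71 at 13 months and 6.29 to 7.38 at 3 months. None of these had an overlap between the libraries of 13 months and those of 3 months. H2-Aa over H2-Ab1, the ratio of the I-A chains, was 0.516 to 0.611 at 13 months and 0.456 to 0.593 at 3 months, which overlap. H2-Oa over H2-Ob, at 0.626 to 1.51 at 13 months and 0.526 to 1.12 at 3 months, and H2-DMb1 over H2-Aa, at 0.359 to 1.17 at 13 months and 0.347 to 0.473 at 3 months, overlapped as well. Between genotypes at 3 months, H2-Aa over H2-Ab1 was 0.524 to 0.593 in HEM and 0.456 to 0.508 in WT mice, without overlap. H2-Oa over H2-Ob was 0.819 to 1.12 in HEM and 0.526 to 0.627 in WT mice, also without overlap. At 13 months both overlapped between genotypes. H2-Aa over H2-Ab1 was then 0.522 to 0.611 in HEM and 0.516 to 0.565 in WT mice. H2-Oa over H2-Ob went the other way, with medians of 0.872 in HEM and 1.11 in WT mice. Cd74 over H2-Ab1 averaged 4.15 ± 0.42 in HEM and 4.32 ± 0.67 in WT mice at 13 months, and 6.81 ± 0.55 in HEM and 6.81 ± 0.13 in WT mice at 3 months (SD). Of the 3 libraries low in H2-Ea-ps, WT replicate 9 and HEM replicate 8 had the highest H2-DMb1 over H2-DMb2, at 4.44 and 3.45. HEM replicate 12, at 1.92, lay among the rest. In WT replicate 9 and HEM replicates 8 and 12, Cd74 over H2-Ab1 was 3.31, 3.55 and 3.49. These were the lowest values of 13 months, with 4.13 next. H2-DMa over H2-DMb1 was 0.869, 0.945 and 0.81 in the same libraries, again the lowest of 13 months, with 1.03 next. Age, and any difference in alleles between the mice of the 2 ages, cannot be told apart here. These ratios were chosen after the values were seen and carry no test.

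**Figure D5:**
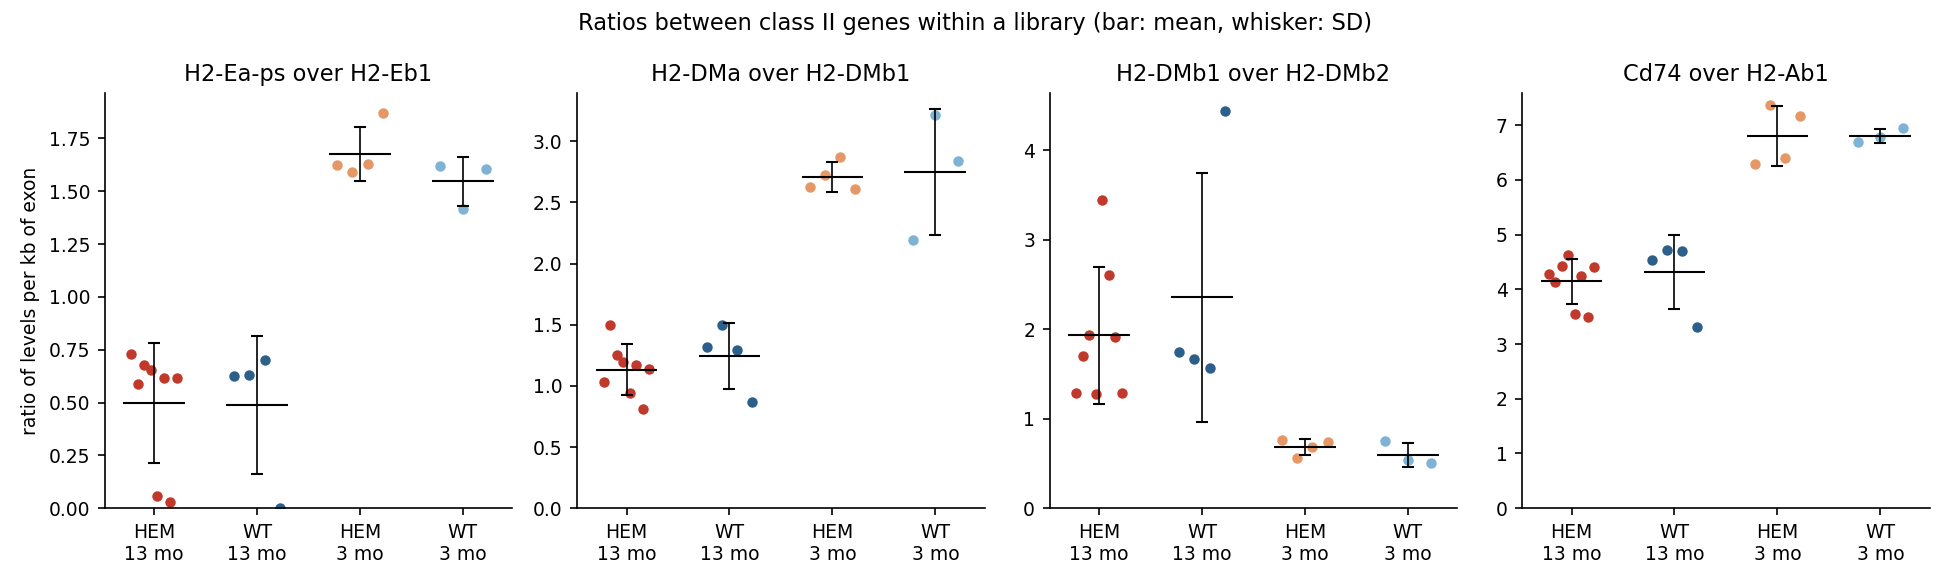
Ratios of levels per kb of exon between class II genes in each library; bars are group means and whiskers the SD (n = 8, 4, 4 and 3). In all 4 ratios the 13-month and 3-month libraries do not overlap, and the 3 libraries near 0 for H2-Ea-ps over H2-Eb1 are HEM replicates 8 and 12 and WT replicate 9 of 13 months.

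The chains followed each other closely across libraries. Over the 19 libraries, the Pearson r with the mean standardised level of H2-Aa, H2-Ab1, H2-Eb1 and Cd74, each gene's own value left out, was 0.99 for H2-Eb1, 0.93 for H2-Ab1, 0.92 for H2-Aa and 0.68 for Cd74. It was 0.71 for H2-Ob, 0.64 for H2-DMb1, 0.61 for Ciita, 0.56 for H2-Oa, 0.29 for H2-DMa and 0.18 for H2-DMb2. Genes outside the class II list were ranked in the same way if their mean log2 value was at least 5. Genes without a symbol or with a predicted, clone or mitochondrial name were left out, and 15239 remained. The 8 of highest r were Rpl17-ps10, Rps27rt, Rpl19-ps11, Coro2a, Vps54, Rpsa-ps12, Il18rap and Rpl18-ps2, with r of 0.83 to 0.79. Of these, 4 are ribosomal protein pseudogenes and Rps27rt is a retrogene, whose reads can be shared with their parent genes. Of the 8, 5 were called higher in HEM than in WT mice at 13 months, where 4.87% of tested genes were. Their log2 changes were 1.44 for Il18rap, an IL-18 receptor chain, 0.78 for Rps27rt, 0.69 for Rpl19-ps11, 0.64 for Coro2a, an actin-binding coronin, and 0.23 for Vps54. The 8 were picked for likeness to 4 genes called higher in that comparison, so calls in that direction were partly built in. The libraries share groups, so these r hold the group differences too. Within groups r was 0.94 to 0.97 for the 3 chains, 0.80 for Cd74 and 0.20 to 0.62 for the 8 other genes. It was 0.70 for H2-Ob, 0.63 for H2-Oa, 0.58 for H2-DMb1, 0.53 for H2-DMa, 0.44 for H2-DMb2 and 0.37 for Ciita. The order of H2-DMa, H2-DMb2 and Ciita thus differed from that over the 19 libraries.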

How the data were processed

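The deposited values are a signal, gene read counts scaled by the authors with a size factor for each library, as read from the values, 100% of which were whole multiples of their library's step at a tolerance of 0.01. Tools named in the submitters' processing notes are featureCounts, HISAT2, Trimmomatic and DESeq2, without versions, and the build is mm10. Whether mates of a pair were counted separately is not given in the sources used here. Genes with 2 recovered reads were 1.51 to 2.35 times as many as genes with 1 in each library, so depths are given as counted. Per the labels, RNA came from an AllPrep kit and libraries from NEBNext Ultra II RNA. Annotation was GENCODE M21; 99.5% of IDs had a symbol.

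The members, lists, ratios and tests were chosen with earlier results of these data known. The test was limma-trend (limma 3.58.1, R 4.3.3, robust, two-sided) on log2(value + 1) with the 4 groups in 1 model, Benjamini-Hochberg adjusted over 23973 genes and called under 0.05. Fold changes are on that scale, which understates changes of low genes. Means per kb use merged exon length. In the counts of X and Y boxes, no window was found for H2-Ab1 and Ciita, and Cd74 was left out. Whether Cd74, a gene called at 13 months, holds either box is therefore not reported here. Alternatives used pseudocounts of 0.5 and 10, no low filter and a filter at 50, TMM scaling, edgeR 4.0.16 and DESeq2 1.42.0 on the recovered reads, the compared groups alone, the replicate number as a block, left-out libraries and marker covariates. The fit was tested on simulated data. Named genes were the 10, H2-Ea-ps and H2-Eb2, up to 6 called pathway genes of smallest p per comparison, and the 8 genes most like the chains; Rfx5, Cd86, Tap1 and the called dendritic and T cell markers were named after their values were seen. In the pathway at 13 months, 7 genes were called, and 1 of them is not reported here.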

Additional observations from a re-analysis of the deposited data

Results flagged for a closer look

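H2-Aa in WT replicate 7 at 13 months, at 12778 normalised reads, stood apart from the other 3 WT mice of that age, which had 9319 to 9722. Its gap to the nearest of them was 0.883 of the range of the group, where the 95% critical value for 4 samples is 0.829. The same mouse was the highest of the 4 in H2-Ab1, H2-Eb1 and Cd74. Of 36 sets of values tested in this way, 1 gene in 1 group each, this was the only one to stand out. Chance gives about 1 in every 20 sets tested, so 1 among 36 is no more than chance would give.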

How the results depend on the processing

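The 10 class II genes had 4 calls at 13 months, 0 at 3 months, 4 with age in HEM mice, 1 with age in WT mice and 0 for the difference of the genotype effects. At 13 months the count was 4 or 5 in the other settings but 0 with the replicate number as a block, 0 without the 3 libraries low in H2-Ea-ps, 0 with the neutrophil and erythroid covariate, 0 with the dendritic and B cell covariate, and 3 to 5 when 1 library was left out. With age in HEM mice it was 0 with the block, 1 without the 3 libraries, 0 with the neutrophil and erythroid covariate, and 1 to 4 when 1 library was left out. With age in WT mice it was 2 with a filter at 50, 3 with DESeq2, 2 without the 3 libraries apart on principal components (HEM replicates 1 and 11 at 13 months and HEM replicate 3 at 3 months), 0 with the compared groups alone, with the block, without the 3 libraries low in H2-Ea-ps and with either covariate, and 0 to 2 when 1 library was left out. It was 0 to 0 at 3 months and for the difference of effects. The replicate numbers carry no stated pairing: deviations of same-numbered mice of 1 age correlated at 0.11 and 0.13 at 13 months and 0.02 and -0.04 at 3 months, and over all genes the block left 0 calls at 13 months. Log2 differences that turned sign, all of genes not called, were at 13 months H2-DMa 0.0493 (neutrophil and erythroid covariate; left-out libraries -0.22 to 0.021), H2-DMb1 (left-out libraries -0.11 to 0.21), H2-DMb2 -0.34 (block) and -0.17 (dendritic and B cell covariate), and H2-Ob -0.0631 (the same covariate). At 3 months H2-Ob was 0.13 with the block and -0.28 to 0.12 with libraries left out. With age Cd74 in HEM mice was -0.0561 (neutrophil and erythroid) and -0.0206 (dendritic and B cell) with the covariates and -0.11 to 0.15 with libraries left out, in WT mice it was 0.0511 with the block, and H2-DMb2 in WT mice was 0.43 with the block. The difference of effects for H2-Aa was -0.0132 without the 3 libraries and -0.105 to 0.253 with libraries left out. The causes were not tested. Over all genes, calls with age on the recovered reads by DESeq2 were 781 higher and 527 lower in HEM mice and 833 and 384 in WT mice, against 224 and 164, and 111 and 59, by limma; with the neutrophil and erythroid covariate they were 0 and 1 in HEM and 3 and 1 in WT mice. Groups of 3 to 8 mice and 1 library per mouse limit what can be told.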
